A study of Mus musculus with 16 samples.

Results

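MHC class I and class II antigen presentation was followed through 10 genes in microglia of the mouse olfactory bulb. These were the class I heavy chains H2-K1 and H2-D1, the class I light chain B2m, the peptide transporter subunits Tap1 and Tap2, the loading factor Tapbp, the class II chains H2-Aa, H2-Ab1 and H2-Eb1, and the invariant chain Cd74. They were taken by symbol from a count table of 57010 genes, and all 10 (6 of class I, 4 of class II) were listed and passed the filter on low counts that 18227 genes passed. The study compared WT mice with APP-NL-G-F mice, in which 3 disease-linked changes were placed in the App gene itself, so that every cell that uses App carries them. All mice were 2 months old, and the WT mice were of the C57BL/6J strain. Per the study's methods, the APP-NL-G-F mice were kept on the same background. The cells were captured from the olfactory bulb with magnetic beads against CD11b, a surface protein shared by microglia and other myeloid cells. There were 16 libraries, 4 each from WT f, WT m, APP-NL-G-F f and APP-NL-G-F m, where f and m were read as the sexes. The labels do not say that each library came from its own mouse, and a reporting form of the study mentions technical replicates, so p-values measure the spread between these libraries only.

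Class I molecules sit on nearly every nucleated cell and show CD8 T cells peptides cut in the cytosol by the proteasome, pumped into the endoplasmic reticulum by the Tap1 and Tap2 transporter, and loaded with the help of Tapbp (tapasin) onto a heavy chain paired with beta-2 microglobulin. Class II molecules belong to professional antigen-presenting cells, where the invariant chain guards the groove until lysosomal proteases clear it, and they show peptides to CD4 T cells. Microglia at rest carry little class II, while macrophages at the borders of the brain and dendritic cells carry more. Interferon gamma raises both classes, through Nlrc5 for class I and Ciita for class II.

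Library totals ranged from 9052932 to 18117286 counts. Levels are given in CPM (counts scaled to a common library total, with TMM factors). A count of 0 allows 0.166 to 0.331 CPM depending on the library, a limit that covers counting error only and was taken from library totals without TMM factors. Xist was at 547 to 862 CPM in the f and at most 0.448 CPM in the m libraries. App was at 371 to 462 CPM in WT and 388 to 423 CPM in APP-NL-G-F libraries; a count per gene does not show the inserted changes and so does not check the genotype labels. Per the study's methods, the authors checked the group labels by looking for the inserted changes in reads aligned to App. The summed level of 13 microglial markers, the abundant Csf1r and Cx3cr1 among them, was 21113 to 23395 CPM in WT f, 21301 to 24670 CPM in APP-NL-G-F f, 21510.2 to 24966 CPM in WT m and 21187 to 24586 CPM in APP-NL-G-F m libraries. Of these 13 markers, 0 were called in any genotype comparison, where 8.64% of all genes were called over both sexes.

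The class I heavy chains and the class II chains lie together in the MHC on chromosome 17 (GRCm39): H2-K1 at 34214987 to 34219321, H2-Ab1 at 34476663 to 34488393, H2-Aa at 34493404 to 34506798, H2-Eb1 at 34504236 to 34535648 and H2-D1 at 35481691 to 35486475, with Tapbp, Tap1 and Tap2 between 34134873 and 34435829. B2m lies on chromosome 2 at 121977957 to 121983594. In 9 of the 10 genes (Cd74 was not searched), the 250 bases before the start of the canonical transcript, which in H2-Ab1, H2-Eb1, Tap1, Tapbp and (by 1 base) H2-Aa lies inside the annotated gene, were searched on both strands for 3 textbook elements: the core of enhancer A (GGGATTCCC), bound by NF-kappaB, the interferon response element (AANNGAAA), bound by IRF factors, and the Y box (CTGATTGG), bound by the NF-Y part of the complex that recruits Ciita. Of 21770 promoters of protein-coding genes 0.345%, 22.4% and 4.54% held these letters. Shown 5′ to 3′ on the strand of the gene, with matches in capitals and annotated exon bases left out, are the only 1 of the 9 genes searched with an enhancer A core in its window (H2-K1, chr17:34219393-34219571, minus strand) and the class I gene H2-Q5 (chr17:35612852-35613101, plus strand), which fell with it:

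H2-K1: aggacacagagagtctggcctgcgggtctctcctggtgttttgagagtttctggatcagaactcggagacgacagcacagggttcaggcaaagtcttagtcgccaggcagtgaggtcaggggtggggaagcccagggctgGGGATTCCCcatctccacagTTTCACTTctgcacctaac

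H2-Q5: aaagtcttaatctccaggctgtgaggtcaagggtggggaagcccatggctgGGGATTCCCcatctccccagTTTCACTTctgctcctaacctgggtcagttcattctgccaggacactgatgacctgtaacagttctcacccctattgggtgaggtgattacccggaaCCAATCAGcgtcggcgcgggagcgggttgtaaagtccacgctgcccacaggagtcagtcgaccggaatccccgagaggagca

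Both hold the enhancer A core followed by an interferon element on the opposite strand, which in H2-K1 begin 110 and 90 bases and in H2-Q5 199 and 179 bases before the start. The third stretch in capitals in H2-Q5 is a Y box on the opposite strand, which begins 82 bases before the start. In the same search of further class I genes, H2-Q6, which also fell, held the core and the interferon element. H2-Q7 held them too. Its log2 fold change over both sexes was -0.68 (SE 0.357), but it did not pass the edgeR test (false discovery rate 0.259). H2-Q4, which fell, held no enhancer A core. A link between these letters and the fall was not tested. The stretches of H2-Ab1 (chr17:34481933-34482182, plus strand), H2-Aa (chr17:34506799-34507047, minus strand) and H2-Eb1 (chr17:34524723-34524812, plus strand) are shown because these 3 genes rose and fell together across libraries:

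H2-Ab1: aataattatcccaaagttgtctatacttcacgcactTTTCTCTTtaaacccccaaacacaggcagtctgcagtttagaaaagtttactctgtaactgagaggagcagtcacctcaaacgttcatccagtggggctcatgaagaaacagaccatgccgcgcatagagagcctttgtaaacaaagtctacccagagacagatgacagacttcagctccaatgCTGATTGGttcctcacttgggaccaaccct

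H2-Aa: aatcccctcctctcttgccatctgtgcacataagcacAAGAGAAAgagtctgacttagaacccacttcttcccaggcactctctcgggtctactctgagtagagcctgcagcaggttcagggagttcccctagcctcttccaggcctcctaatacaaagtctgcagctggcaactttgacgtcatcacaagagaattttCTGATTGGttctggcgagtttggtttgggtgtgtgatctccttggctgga

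H2-Eb1: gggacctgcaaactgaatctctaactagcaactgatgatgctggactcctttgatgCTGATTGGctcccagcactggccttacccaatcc

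All 3 hold the Y box on the strand of the gene, beginning 30, 51 and 34 bases before the start, and H2-Ab1 and H2-Aa also hold an interferon element. Tap1 had a Y box 67 bases before its start on the opposite strand, Tap2 and Tapbp had an interferon element, and the windows of H2-D1 and B2m held none of the 3 letter strings. A match is a description of the letters and not of a bound site, and no match says only that these letters are not in the window.

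Compared per length, as CPM per kilobase of transcript, B2m had the highest level of the 10 genes (908 ± 117, SD, n = 16). H2-D1 (219 ± 50.8), Cd74 (206 ± 62.6) and H2-K1 (184 ± 52.0) followed. Below them came H2-Ab1 (107 ± 31.1), H2-Aa (74.0 ± 22.4), Tapbp (56.4 ± 3.03), H2-Eb1 (52.3 ± 15.8), Tap1 (11.1 ± 1.68) and Tap2 (10.35 ± 0.970). Only B2m against H2-D1 and H2-Eb1 against Tap1 were neighbours in this order whose ranges over the 16 libraries did not overlap. B2m thus stood above and the transporter subunits below all others. The ranges of the neighbours between them overlapped. This does not show equal levels, because all genes were measured in the same libraries and differences within libraries were not tested.

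H2-K1, one of the classical class I heavy chains, was lower in APP-NL-G-F microglia. In f libraries its level was 369, 391, 378 and 453 CPM in WT and 199, 365, 223 and 256 CPM in APP-NL-G-F. In m libraries it was 232, 390.2, 332 and 279.8 CPM in WT and 192, 192, 285 and 241 CPM in APP-NL-G-F. The f groups did not overlap, with 365 CPM in the highest APP-NL-G-F and 369 CPM in the lowest WT library, and the m groups did. The group means were 398 ± 38.0 CPM in WT f, 261 ± 73.5 CPM in APP-NL-G-F f, 308 ± 68.2 CPM in WT m and 227 ± 44.7 CPM in APP-NL-G-F m (SD, n = 4 each).

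A gene was called when its false discovery rate (FDR, edgeR quasi-likelihood test with Benjamini-Hochberg adjustment over all 18227 genes) was below 0.1 and its log2 fold change exceeded 0.5 in size. Over both sexes the log2 fold change of H2-K1 between APP-NL-G-F and WT was -0.52 (SE 0.124, FDR = 0.0124). Within f it was -0.61 (SE 0.177, FDR = 0.0512) and was called, and within m it was -0.44 (SE 0.178, FDR = 0.342) and was not. The difference between the sexes, -0.17 (SE 0.250, FDR = 0.990), did not pass the test. Its fold change lies near the threshold of 0.5, so that leaving out any 1 of APP-NL-G-F f replicates 1 and 3, APP-NL-G-F m replicates 1 and 2, WT f replicate 4 or WT m replicate 2 took it below that threshold, to between -0.49 and -0.46, with an FDR of at most 0.0347. Within f the call was lost without APP-NL-G-F f replicate 1, 3 or 4 or WT f replicate 1 or 2, with log2 fold changes of -0.63 to -0.48 and FDRs of 0.110 to 0.164.

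H2-D1, the other classical heavy chain of this strain, had lower values in APP-NL-G-F libraries but did not pass both thresholds. Its levels in f libraries were 524, 582, 534 and 610.3 CPM in WT and 352, 623, 361 and 409.6 CPM in APP-NL-G-F. In m libraries they were 409, 651, 447 and 380.2 CPM in WT and 358, 351, 463 and 367 CPM in APP-NL-G-F. In APP-NL-G-F f, replicate 2 stood above all WT f libraries while the other 3 stood below all of them. Over both sexes the log2 fold change was -0.33 (SE 0.119, FDR = 0.0890), within f -0.37 (SE 0.172, FDR = 0.233) and within m -0.30 (SE 0.172, FDR = 0.529). Without APP-NL-G-F f replicate 2 the difference within f was -0.57 (FDR = 0.0391), and H2-D1 was then called there. In 15 of the 16 fits with 1 library left out it was not called within f, with differences as small as -0.26 and FDRs up to 0.486.

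B2m, the light chain that every class I heavy chain needs, was at 979 to 1069 CPM in WT f, 879 to 1222 CPM in APP-NL-G-F f, 864 to 1276 CPM in WT m and 865 to 1029 CPM in APP-NL-G-F m libraries. These ranges overlapped in both sexes, and the log2 fold change over both sexes was -0.11 (SE 0.0817, FDR = 0.441). Tap1 was at 31.96 to 46.5 CPM in WT f, 29.97 to 39.1 CPM in APP-NL-G-F f, 30.6 to 45.2 CPM in WT m and 28.0 to 35.3 CPM in APP-NL-G-F m. Its log2 fold change was -0.13 (SE 0.0939, FDR = 0.433). Tap2 was at 39.7 to 46.97 CPM in WT f, 37.3 to 41.6 CPM in APP-NL-G-F f, 36.1 to 44.9 CPM in WT m and 35.2 to 47.7 CPM in APP-NL-G-F m, with a log2 fold change of -0.09 (SE 0.0647, FDR = 0.441). Tapbp varied least, between 154 and 187 CPM over the 16 libraries, and its log2 fold change was -0.04 (SE 0.0424, FDR = 0.599). These 4 genes had no difference over both sexes that passed the test, at standard errors below 0.1 on the log2 scale.

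**Figure D1:**
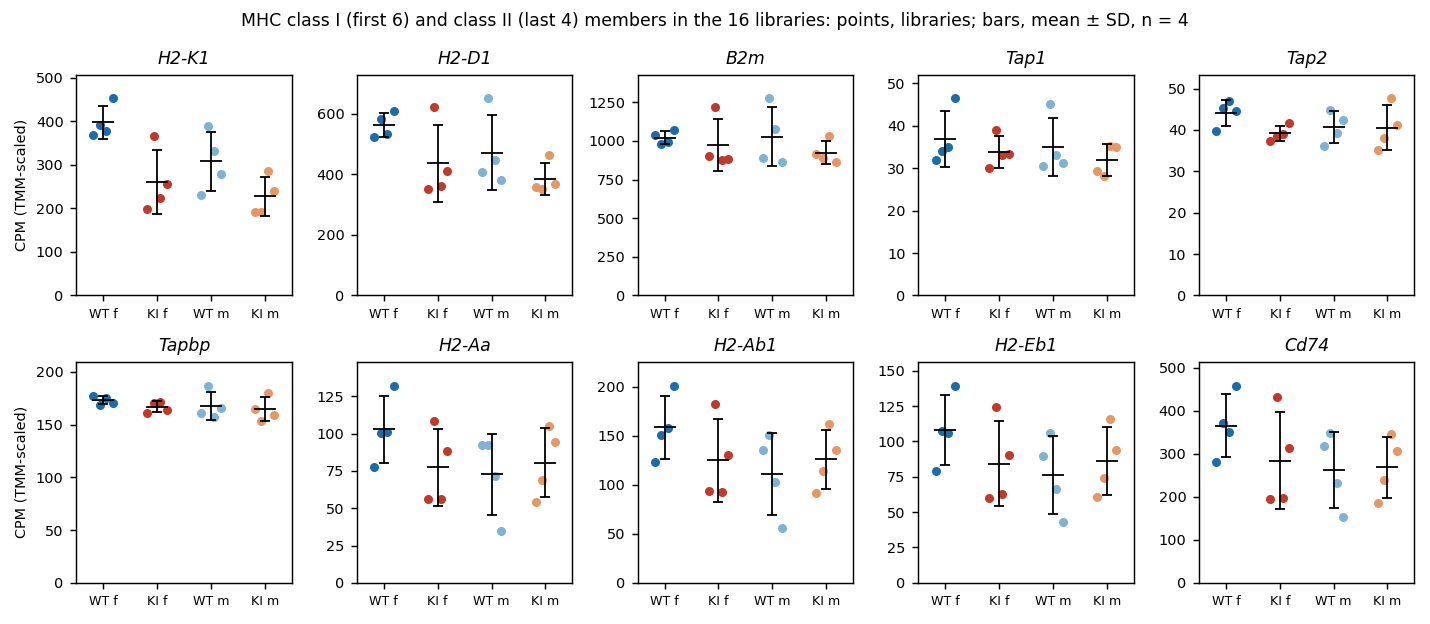
Each panel plots 1 gene, with its level in CPM on the vertical axis from 0 and the 4 groups on the horizontal axis (KI, APP-NL-G-F); points are libraries and bars the mean ± SD of 4. In the H2-K1 panel the 4 APP-NL-G-F f libraries (199 to 365 CPM) sit below the 4 WT f libraries (369 to 453 CPM), while the groups overlap in the panels of the class II genes.

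The class II genes varied widely within every group, and 0 of the 4 passed the test between the genotypes. Cd74, the invariant chain, was at 281, 372, 350.4 and 459 CPM in WT f and 195, 432, 197 and 313 CPM in APP-NL-G-F f libraries. In m libraries it was at 318, 349, 232 and 152 CPM in WT and 185, 239, 346 and 306 CPM in APP-NL-G-F. Within every group the highest library had at least 1.64 times the level of the lowest, and the groups overlapped in both sexes. H2-Ab1, the beta chain of the I-A molecule, was at 124, 151, 158 and 201 CPM in WT f and 94.0, 182, 92.2 and 130.4 CPM in APP-NL-G-F f. In m libraries H2-Ab1 was at 135, 151, 103 and 55.8 CPM in WT and 91.4, 115, 162 and 135 CPM in APP-NL-G-F. H2-Aa, the alpha chain of I-A, ranged from 34.4 to 132 CPM and H2-Eb1 from 42.7 to 139.6 CPM, with the lowest value of each in WT m replicate 4 and the highest in WT f replicate 4. H2-Ea, which would encode the partner of H2-Eb1 and is broken in the C57BL/6 strain, had 0 counts in 15 libraries and 1 count in the other.

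Over both sexes the log2 fold changes were -0.17 for Cd74 (SE 0.191, FDR = 0.663), -0.14 for H2-Aa (SE 0.203, FDR = 0.749), -0.09 for H2-Ab1 (SE 0.191, FDR = 0.839) and -0.09 for H2-Eb1 (SE 0.195, FDR = 0.830). Within f all 4 lay between -0.41 and -0.34 (FDR 0.438 to 0.506), and within m between 0.03 and 0.17 (FDR 0.839 to 0.978). The difference between the sexes, -0.55 for H2-Aa, -0.53 for H2-Eb1, -0.52 for H2-Ab1 and -0.39 for Cd74, did not pass the test (FDR 0.965 to 0.987). When no filter on low counts was applied, H2-Aa, H2-Ab1 and H2-Eb1 were called for this difference, in a fit that called 470 of 39394 genes against 5 of 18227 here. Without WT f replicate 4 the differences over both sexes of H2-Ab1 and H2-Eb1 were 0.00364 and 0.00336.

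**Figure D2:**
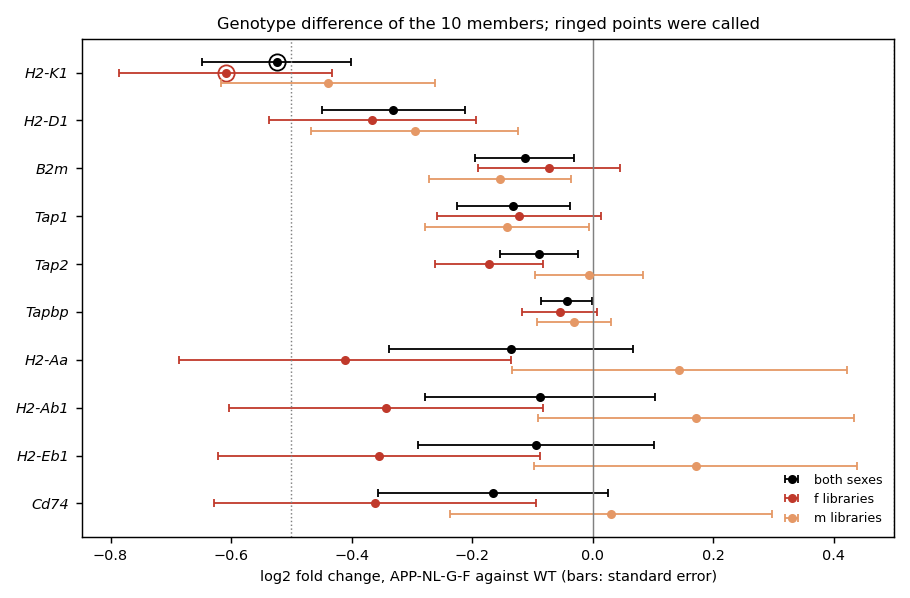
The horizontal axis gives the log2 fold change of APP-NL-G-F against WT for each of the 10 genes, over both sexes and within f and m libraries, with bars of 1 standard error. Ringed points mark calls, which are H2-K1 over both sexes (-0.52) and within f (-0.61), and the dotted line marks the threshold of -0.5.

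Counted together, 1 of the 10 genes was called over both sexes, where 8.64% of all genes tested were called and 4.3% were called lower. Within f, 1 was called (background 7.15%), and within m 0 were called (0.252%). For the difference between the sexes 0 were called (0.0274%), and so were 0 between f and m libraries irrespective of genotype (0.0604%), where H2-K1 was 0.28 higher in f on the log2 scale (SE 0.124, unadjusted p = 0.0348, FDR = 0.746 in the edgeR fit). By FDR alone, without the fold threshold, 2 of the 10 (H2-K1 and H2-D1) were below 0.1 over both sexes, against 14.8% of all genes. Ranges that did not overlap were seen for 1 of 10 genes within f (all genes 12.6%), 0 within m (5.01%) and 0 over all WT against all APP-NL-G-F libraries (1.29%). With 1 of 10 genes, the shares called over both sexes and within f are near the background. The median log2 fold change over both sexes was -0.12 for the 6 class I and -0.11 for the 4 class II genes, and that of all genes tested was -0.00144. In bulk libraries, fewer cells of a type and less RNA per cell cannot be told apart.

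The library numbers in the labels fall into a lower and an upper set of 8, which hold replicates 1 and 2 and replicates 3 and 4 of every group; the labels do not say what the numbers stand for. Between these sets 0 of the 10 genes were called, against 0.73% of all genes. With the number set as a term in the fit, H2-K1 kept its call over both sexes at a log2 fold change of -0.53 (FDR = 0.0126).

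Other genes of the class I family, taken from a list of 35 class I and class I-like molecules of which 28 were in the table and 14 were tested, were compared in the same way. Over both sexes 4 of the 14 fell and 0 rose, where 8.64% of all genes were called and 4.3% were called lower; 12 of the 14 had log2 fold changes below 0, and the median was -0.39. H2-Q5, from the Q region of the MHC, was at 13.1, 12.3, 15.2 and 16.6 CPM in WT f and 4.75, 9.18, 4.65 and 9.73 CPM in APP-NL-G-F f libraries. In m libraries it was at 10.6, 13.4, 11.54 and 8.33 CPM in WT and 3.998, 2.98, 8.82 and 8.85 CPM in APP-NL-G-F. The f groups did not overlap and the m groups did. The log2 fold change of H2-Q5 was -0.93 over both sexes (SE 0.207, FDR = 0.00859) and -1.01 within f (SE 0.293, FDR = 0.0499).

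H2-Q4, the most abundant of the 4, was at 51.5 to 80.6 CPM in WT f, 32.1 to 53.3 CPM in APP-NL-G-F f, 36.3 to 56.4 CPM in WT m and 23.2 to 45.3 CPM in APP-NL-G-F m, a log2 fold change of -0.54 (SE 0.141, FDR = 0.0219). H2-Q6 was at 4.50 to 8.03 CPM in WT f, 1.47 to 4.70 CPM in APP-NL-G-F f, 1.68 to 6.36 CPM in WT m and 1.08 to 3.53 CPM in APP-NL-G-F m (log2 fold change -0.95, SE 0.290, FDR = 0.0458). H2-K2, a neighbour of H2-K1 annotated as a long non-coding RNA, was at 3.47 to 6.75 CPM in WT f, 1.47 to 3.27 CPM in APP-NL-G-F f, 2.48 to 5.16 CPM in WT m and 1.08 to 3.53 CPM in APP-NL-G-F m, so that its f groups did not overlap and its m groups did (-0.95 over both sexes, SE 0.249, FDR = 0.0223). H2-Q4 and H2-K2 were also called within f (-0.62, FDR = 0.0802, and -1.10, FDR = 0.0750), and 0 of the 14 were called within m. The call of H2-Q4 was lost without APP-NL-G-F f replicate 1, APP-NL-G-F m replicate 1 or 2, WT f replicate 4 or WT m replicate 2 (-0.49 to -0.46), and that of H2-Q6 without WT m replicate 2 (-0.78, FDR = 0.126).

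The 3 genes of highest level in this list did not pass the test. Fcgrt, the neonatal Fc receptor, had a log2 fold change of 0.04 (SE 0.0480, FDR = 0.650), H2-T23, which encodes the Qa-1 ligand of NK cell receptors, one of -0.05 (SE 0.0860, FDR = 0.789), and H2-T24 one of 0.04 (SE 0.0781, FDR = 0.826). Class I genes are near copies of each other, and reads can be split between them or dropped. Of the 75-base windows of the main transcript, 1.55% in H2-K1 and 6.85% in H2-D1 also occurred in another gene, against 8.46% in H2-Q4, 20.8% in H2-Q5, 18.3% in H2-Q6 and 42.8% in H2-K2, so the values of the last 3 are uncertain. B2m and the class II genes had 0 such windows. Of the 10 members, only Cd74 did not overlap a gene on the opposite strand in the annotation, H2-Aa and H2-Eb1 overlap each other, and H2-Q4, H2-Q6 and H2-K2 also overlap such genes; the strand used in counting is not given in the sources used here.

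**Figure D3:**
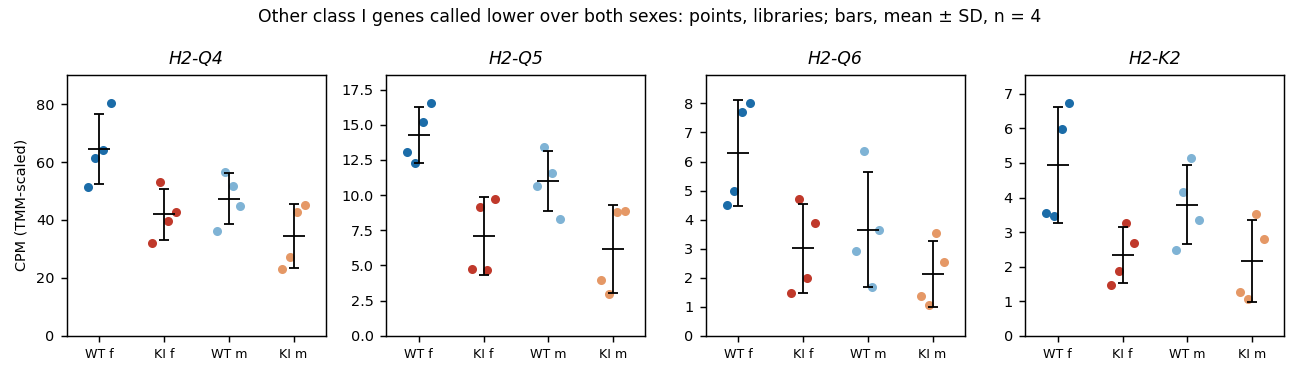
Levels in CPM from 0 of the 4 further class I genes called lower over both sexes, by group (KI, APP-NL-G-F), with points for libraries and bars for the mean ± SD of 4. H2-Q5 in APP-NL-G-F f libraries (4.65 to 9.73 CPM) lies below every WT f library (12.3 to 16.6 CPM), whereas the H2-Q4 ranges overlap.

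The steps before and after the members held 0 calls over both sexes, where 8.64% of all genes were called. At that share, lists of this size would hold few calls. Of 18 genes of class I peptide supply and loading (proteasome subunits, trimming peptidases, chaperones), 0 were called over both sexes and the median was -0.04; the lectin chaperone Calr, at 1059 CPM on average, had a log2 fold change of -0.17 (SE 0.0473, FDR = 0.0301), and Canx and Pdia3, also abundant, had -0.03 and -0.08 (FDR 0.833 and 0.474). Of 10 other class II molecules 5 were tested and 0 called; H2-Ob, part of the H2-O inhibitor of peptide exchange, had -0.29 (SE 0.0678, FDR = 0.0123), and the peptide exchange factors H2-DMa and H2-DMb1 had -0.08 and -0.12 (FDR 0.489 and 0.303). Of 16 genes of class II peptide supply 0 were called; Ctss, which makes the final cuts in the invariant chain, was at 4906 CPM with a log2 fold change of -0.07 (SE 0.0638, FDR = 0.557), and Lgmn and Ctsd had -0.04 and 0.01 (FDR 0.635 and 0.969).

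Among 18 transcription factors that act on MHC genes 0 were called in any genotype comparison, where 8.64% of all genes were called over both sexes. Of the 18, 16 had log2 fold changes below 0 over both sexes, and the median was -0.09. The most abundant were Irf8, Nfkb1 and Spi1, with -0.12 (FDR = 0.125), -0.12 (FDR = 0.0902) and -0.09 (FDR = 0.222). The lowest FDRs of the list, named after their values were seen, were those of Nfya, a subunit of NF-Y (-0.17, SE 0.0427, FDR = 0.0155), and Rela, a subunit of NF-kappaB (-0.23, SE 0.0583, FDR = 0.0194, and -0.35 within f, FDR = 0.00913), whose fold changes were below the threshold. Ciita, the class II transactivator, was at 4.74 to 12.7 CPM with a log2 fold change of -0.25 (SE 0.178, FDR = 0.442). Nlrc5, its class I counterpart, had a mean of 13.5 CPM and a log2 fold change of -0.35 (SE 0.227, FDR = 0.383).

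Of 22 genes of the interferon gamma pathway tested, 1 fell over both sexes, a share near the 4.3% of all genes called lower. Socs3, a feedback inhibitor of cytokine receptors, was at 469, 547, 438 and 418 CPM in WT f and 113, 156, 114 and 239 CPM in APP-NL-G-F f libraries. In m libraries Socs3 was at 245, 231, 239 and 268 CPM in WT and 94.8, 81.0, 201 and 274 CPM in APP-NL-G-F. The log2 fold change of Socs3 was -1.09 over both sexes (SE 0.239, FDR = 0.00762) and -1.59 within f (SE 0.300, FDR = 0.00397). Within m it was -0.59 (SE 0.295, FDR = 0.454) and was not called. The difference between the sexes, -0.997 (SE 0.416, FDR = 0.753), did not pass the test. The receptor chain Ifngr1 and the kinase Jak1 had -0.04 and -0.05 (FDR 0.8004 and 0.582), and the median of the list was -0.04. Of 12 T cell co-stimulation genes 0 were called over both sexes (8.64% of all genes). The 3 most abundant, Vsir, Havcr2 and Cd86, had -0.05, -0.12 and -0.14 (FDR 0.550, 0.272 and 0.106).

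The class II genes rose and fell together from library to library. Over the 16 libraries the 6 pairs of H2-Aa, H2-Ab1, H2-Eb1 and Cd74 had Pearson's r of 0.973 to 0.989 and Spearman's rho of 0.953 to 0.982 on the log2 CPM scale (permutation test, two-sided, Benjamini-Hochberg adjusted over the 45 pairs of members, p = 6.43e-05 in each pair, the smallest the permutations can give after adjustment). Without the 2 libraries farthest from the median r was 0.971 to 0.992, within the lower and the upper set of library numbers it was 0.977 to 0.994, and within WT and within APP-NL-G-F libraries it was 0.975 to 0.998. H2-K1, H2-D1 and B2m formed a looser group, with r of 0.740 to 0.932 and adjusted p of 6.43e-05 to 0.00456 over 3 pairs. The closest of these was H2-K1 with H2-D1 (r = 0.93, rho = 0.94, and r = 0.92 without the 2 farthest libraries). Between the classes r was 0.314 to 0.784 over 24 pairs. Levels of 1 library share its total and its scaling factor, so pairs are not independent.

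The genes most like the mean of the 4 class II genes, after genotype and sex were taken out and over all 16 libraries, were Ciita (r = 0.92), Cybb, a subunit of the phagocyte oxidase (0.92), Gvin3 (0.91), Plbd1 (0.91) and Slamf7 (0.90). Those most like the mean of H2-K1, H2-D1 and B2m were Il2rg, the common cytokine receptor chain (0.94), Fgl2 (0.94), the interferon-induced Gbp2 (0.94), the complement component C4b (0.90) and Ifitm3 (0.90). They were chosen as the highest of all genes tested, which makes these values a description. None of the 10 was called between the genotypes (FDR 0.175 to 0.912).

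**Figure D4:**
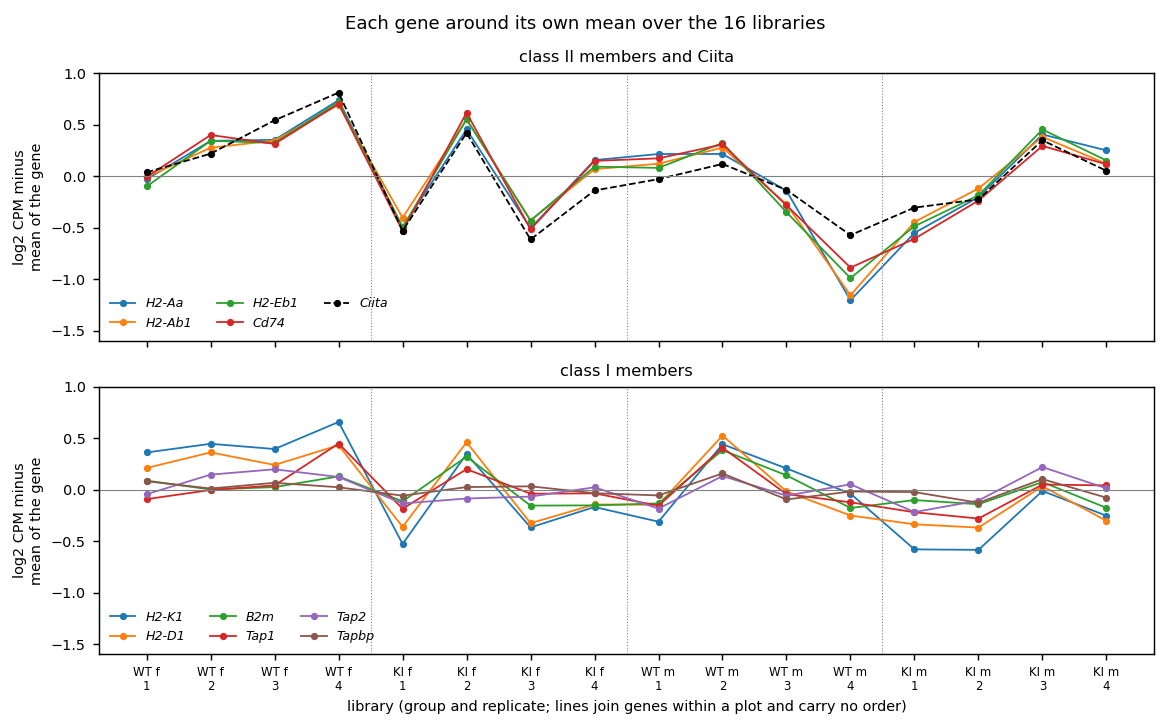
The vertical axes give log2 CPM minus the mean of the gene over the 16 libraries shown on the horizontal axis; the upper plot holds the class II genes with Ciita (dashed) and the lower plot the 6 class I genes. The class II lines lie on top of each other, lowest in WT m replicate 4 and highest in WT f replicate 4, while Tapbp stays close to 0.

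Markers of other cell types were measured beside these values. The mean of 12 dendritic cell genes had r = 0.89 with the mean of the class II genes over 16 libraries, that of 12 border macrophage genes 0.62, that of 10 monocyte genes 0.16 and that of 4 B cell genes -0.17. In these lists 5, 6, 1 and 0 single genes had r above 0.5 with the class II mean. Lists not tied to a cell type also had high values. These were 0.78 for the other class I molecules, 0.77 for the MHC transcription factors and 0.74 for the interferon gamma pathway. Summed dendritic cell genes, mostly Wdfy4 and then Clec10a and Batf3, came to 282 to 292 CPM in WT f, 241 to 275 CPM in APP-NL-G-F f, 237 to 255 CPM in WT m and 214 to 286 CPM in APP-NL-G-F m libraries. Flt3, a growth factor receptor of dendritic cells, was lower in APP-NL-G-F within f (-0.68, SE 0.223, FDR = 0.0840), the only call among the 12. That share is near the 7.15% of all genes called within f. Within f 10 of the 12 dendritic cell genes had log2 fold changes below 0 and 2 above, and within m 6 were below and 6 above. Summed border macrophage genes, led by Stab1, Mrc1 and F13a1, came to 1377 to 1525, 1359 to 1463, 1251 to 1659 and 1361 to 1740.3 CPM in the same order of groups. Of these genes 0 were called between the genotypes, where 8.64% of all genes were called over both sexes. The part of these cells in the class II values was not tested.

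Some B and T cell markers were at or near 0, and others were not. The B cell genes Ms4a1 and Pax5 each had 0 counts in 11 of 16 libraries and at most 3 counts in any, and the T cell receptor gene Trbc2 had 0 counts in 13 and at most 2. Ighm and Cd79b of the B cell list had counts in every library, up to 4000 and 117. Of the T cell genes, Cd3g had 0 counts in 5 libraries and at most 7, and Cd2 had 0 counts in 3 and at most 6. Of 11 B cell genes 4 were tested, led by Ighm, Blnk and Cd79b and summing to 308 to 376 CPM, and of 13 T and NK cell genes 3 were tested (Cd4, Gzma and Lck), summing to 5.28 to 14.1 CPM. Monocyte genes (10 tested, led by Fn1, Ccr2 and Vcan) summed to 45.0 to 102 CPM and neutrophil genes (6 of 9 tested, led by Csf3r, S100a9 and S100a8) to 188 to 297 CPM. None of these 4 lists held a call between the genotypes over both sexes or within a sex, where 8.64% of all genes were called over both sexes.

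Neuronal and endothelial transcripts were measured in the same libraries. The 14 neuronal genes summed to 489 to 543 CPM in WT f, 638 to 757 CPM in APP-NL-G-F f, 440 to 608 CPM in WT m and 546 to 794 CPM in APP-NL-G-F m. Over both sexes 0 of them were called (8.64% of all genes), and 7, among them Map2, Gad1 and Syt1, were below an FDR of 0.1 (14.8% of all genes). Within f 2, Gad1 and Syt1, were called higher (7.15% of all genes called). The mean of the 14 neuronal genes had r = -0.69 over 16 libraries with the mean of H2-K1, H2-D1 and B2m and also with that of the class II genes. The 10 endothelial genes, which include the abundant Pecam1, summed to 91.8 to 212 CPM in WT f, 81.0 to 101.4 CPM in APP-NL-G-F f, 59.8 to 71.5 CPM in WT m and 79.4 to 114 CPM in APP-NL-G-F m. Over both sexes 0 of the 10 were called or below an FDR of 0.1 (8.64% and 14.8% of all genes). Within f 8 of them fell (Abcb1a, Cldn5, Flt1, Cdh5, Ly6c1, Slco1a4, Tek and Esam), where 7.15% of all genes were called, and within m 1, Abcb1a, rose (0.252% called). Abcb1a was also called for the difference between the sexes (-2.58, FDR = 0.0233). The mean of the endothelial genes had r = -0.13 with that of H2-K1, H2-D1 and B2m. The part of either cell type in the H2-K1 difference was not tested.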

How the data were processed

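RNA of olfactory bulb microglia was sequenced with rRNA depletion in 16 libraries. Per the study's methods and the submitters' processing notes, the authors mapped the reads to GRCm39 using STAR, took gene models from gencode vM32 to which human App was added, and deposited raw counts per gene without normalization; the strand used in counting is not given in the sources used here. All 57010 rows name a gene.

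Analyses used R 4.3.3 and edgeR 4.0.16. A gene entered the tests if 50% or more of the libraries held 5 or more of its counts (18227 genes, 99.9% of all counts). Counts were TMM-normalized and tested with the quasi-likelihood test, genotype with sex as an additive term; contrasts within each sex and their difference came from a fit of the 4 groups. CPM are scaled by TMM factors, and log2 CPM used for correlations carry a prior count of 2. A standard error is the size of the log2 fold change over the square root of its F statistic. Correlation p-values used 100000 permutations. Depths of 9052932 to 18117286 counts limit precision for genes of few counts. The scripts were tested on simulated data. Alternatives were RLE, upper quartile and no scaling, other filters, DESeq2 1.42.0, limma 3.58.1 voom, an FDR of 0.05, FDR alone, a replicate block, a term for the lower and upper set of library numbers, no sex term, each sex alone, and each library left out.

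Besides the 10 members, the named genes are, of each of the other pathway lists, each gene called and the 3 of highest mean level; of each other cell type list the same; and the 5 genes most like each class. The values of some marker genes are not reported here. The members, the gene lists and these rules were chosen with earlier results of these data known. Positions, transcripts and promoter sequences came from GRCm39 with gencode vM39.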

Additional observations from a re-analysis of the deposited data

Results flagged for a closer look

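In 3 of 56 gene and group combinations, 1 of the 4 libraries stood apart from the other 3 by more than Dixon's critical value at the 95% level, where chance gives about 2.8. B2m in APP-NL-G-F f replicate 2 was at 1222 CPM, against 904 CPM in the next library (gap over range 0.926). H2-D1 in APP-NL-G-F m replicate 3 was at 463 CPM, against 367 CPM in the next (0.854). Tap1 in WT m replicate 2 was at 45.2 CPM, against 33.1 CPM in the next (0.830).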

How the results depend on the processing

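Over both sexes the count of members called was 1; it was 2 by FDR alone (H2-K1 and H2-D1) and 0 with library totals alone as scaling, where H2-K1 had a log2 fold change of -0.47 (FDR = 0.0235), and it ranged from 0 to 1 when each library was left out. Across every alternative the log2 fold change of H2-K1 over both sexes stayed below 0, between -0.61 and -0.46. Within f the count was 1; it was 0 at an FDR of 0.05 and ranged from 0 to 2 when each library was left out. For the difference between the sexes it was 0, and 3 with no filter on low counts. Within m, between f and m and between the sets of library numbers it was 0 under every alternative run. Differences over both sexes that turned sign were Tapbp at 0.00752 with library totals alone, and H2-Ab1 at 0.00364 and H2-Eb1 at 0.00336 without WT f replicate 4 (lowest values with a library left out -0.202 and -0.197); none of these was called, and the cause was not tested. Counts of calls over all genes moved by over 1.5 times in these fits. Over both sexes (1574) there were 2692 by FDR alone. Within f (1304) there were 2136 with no filter and 833 at an FDR of 0.05, and 594 to 2110 with a library left out. Within m (46) there were 880 with no filter, 276 by DESeq2, 141 with the library number set as a term, 84 by voom, 8 at an FDR of 0.05 and 4 with m libraries alone, and 5 to 603 with a library left out. For the difference between the sexes (5) there were 470 with no filter, 81 by DESeq2 and 1 to 4 under the other normalizations, filters, tools and terms, 2 at an FDR of 0.05, and 1 to 43 with a library left out. Between f and m (11) there were 57 with no filter and 5 to 9 with a library left out. Between the sets of library numbers (133) there were 698 by FDR alone, 304 with no filter, 61 by DESeq2 and 60 at an FDR of 0.05, and 83 to 242 with a library left out.

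Libraries share replicate numbers across groups. Of 24 same-numbered pairs 8 had a correlation of deviations above 0.1 (-0.33 to 0.29), and 8 of 16 libraries correlated best with their own number. The share that chance would give was not computed, and whether the numbers mark a pairing was not tested. With the replicate number as a block, 1 member was called over both sexes, 1 within f and 0 in the other comparisons, and no call among the members changed.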

Other observations

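Irrespective of genotype and sex, libraries of the upper set of library numbers had higher H2-K2 than those of the lower set by 0.83 on the log2 scale (FDR = 0.0203 in the edgeR fit) and higher Tnfsf9, a co-stimulation ligand, by 0.93, while the log2 difference of the border macrophage receptor Cd163 was -0.50. A further row of the table with the symbol H2-K2, a transcribed pseudogene that shares 89.6% of its 75-base windows with its namesake, had a mean of 0.549 CPM and a log2 fold change of -1.26 between APP-NL-G-F and WT over both sexes (FDR = 0.0204). Unlike the 14 class I family genes counted above, this row was called within m (-2.15, FDR = 0.0775), and its value within f was -0.62 (FDR = 0.384). In m libraries this row was at 0.5996 to 1.32 CPM in WT and 0.0827 to 0.255 CPM in APP-NL-G-F. The APP-NL-G-F m values lie near or below the 0.221 to 0.261 CPM that a count of 0 allows in those libraries, a limit taken without TMM factors. The size of its difference within m is therefore uncertain.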
